A study of Mus musculus with 9 samples.

Results

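The aminoacyl-tRNA synthetases, the enzymes that charge each tRNA with its amino acid, were followed at the transcript level in HT22 cells after oxygen and glucose deprivation. They were taken from the gene table as protein-coding genes whose symbol is 1 letter for the amino acid followed by ars, with or without a final 1 or 2, plus Eprs, Farsa, Farsb and Tarsl2. This gave 38 genes among the 54532 gene IDs of the table, 21 for enzymes that work in the cytosol and 17 for enzymes that work in mitochondria. All 38 were tested, among 13245 genes that averaged 0.5 FPKM or more over the libraries (fragments of a gene scaled by its length and by the depth of the library). Names ending in 2 were read as mitochondrial, except Tarsl2, which encodes a second cytosolic threonyl-tRNA synthetase.

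Each synthetase recognises 1 amino acid and its tRNAs, and the charged tRNA then carries the amino acid to the ribosome. Cytosolic and mitochondrial protein synthesis use separate sets of these enzymes, all encoded in the nucleus, while the glycyl and lysyl enzymes made from Gars and Kars serve both compartments. Many of the cytosolic genes are known targets of ATF4, the transcription factor that is translated when the kinases of the integrated stress response phosphorylate eIF2α, for instance during amino acid shortage.

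The data were 9 poly(A)-selected RNA-seq libraries of HT22, a mouse hippocampal cell line of WT genotype, in 3 groups of 3. Control cells were not treated. OGP cells had 2 h of oxygen and glucose deprivation (OGD) and 24 h of reoxygenation with PBS, and OGE cells had the same with hiPS-MSC-EVs, which are extracellular vesicles released by mesenchymal stem cells that had been made from human iPS cells. The labels place the cells back in standard medium after OGD, whereas the methods of the study describe changes of serum, so a difference in serum between groups cannot be told apart from the treatments. OGP against control asks what deprivation and reoxygenation did, and OGE against OGP asks what the vesicles added. No label says whether the 3 libraries of a group came from separate cultures, and p-values then reflect only how far these libraries spread, which may be technical.

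Each library held between 15026700 and 19476806 reads in genes, recovered from the steps of the FPKM values, and no member had fewer than 119 reads in any library (Ears2, control replicate 1). Control replicate 1 stood apart from the other control libraries on the third principal component, at 33.1 against -15 and -11. Reads of mitochondrially encoded genes made up 1.10 to 2.31% in control, 2.45 to 3.25% in OGP and 2.03 to 2.90% in OGE libraries. Of 10 neuron markers, 3 (Map2, Tubb3 and Eno2) reached 0.5 FPKM, while Rbfox3, Syp, Snap25, Nefl, Camk2a, Stmn2 and Prox1 did not. Of 5 mesenchymal markers 4 reached it, with summed levels of 1135 to 1486 FPKM in control, 914 to 990.3 in OGP and 784 to 905 in OGE. Most of these sums came from Col1a1 and Vim, which went different ways. In control, OGP and OGE the means were 777, 383 and 369 FPKM for Col1a1 and 483, 556 and 441 for Vim. Among markers of glia, only Slc1a3 (1 of 5 for astrocytes) and Tmem119 (1 of 5 for microglia) passed, and none of 4 for oligodendrocytes did. Their part in the results below was not tested, and in bulk RNA fewer cells of a type cannot be told apart from less RNA per cell.

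The cytosolic gene had the higher mean in every pair. Their means over all libraries ran from 5.32 FPKM for Tarsl2 to 119 FPKM for Gars, with a median of 40.7 FPKM over the 21 genes. The mitochondrial genes ran from 1.21 FPKM for Mars2, the methionyl enzyme, to 14.5 FPKM for Lars2, the leucyl enzyme, with a median of 4.31 FPKM. In the 18 pairs of a cytosolic and a mitochondrial gene for the same amino acid, the ratio of the mean FPKM had a median of 8.63. It was lowest for the tyrosyl pair Yars and Yars2, at 2.78, and highest for the asparaginyl pair Nars and Nars2, at 69.1. FPKM is scaled by 1 deposited length per gene, from 1987 bases for Hars to 18102 for Eprs. Which transcripts were expressed was not examined, so levels of different genes compare only as far as these lengths hold. Transcript levels also say nothing of enzyme amounts.

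**Figure D1:**
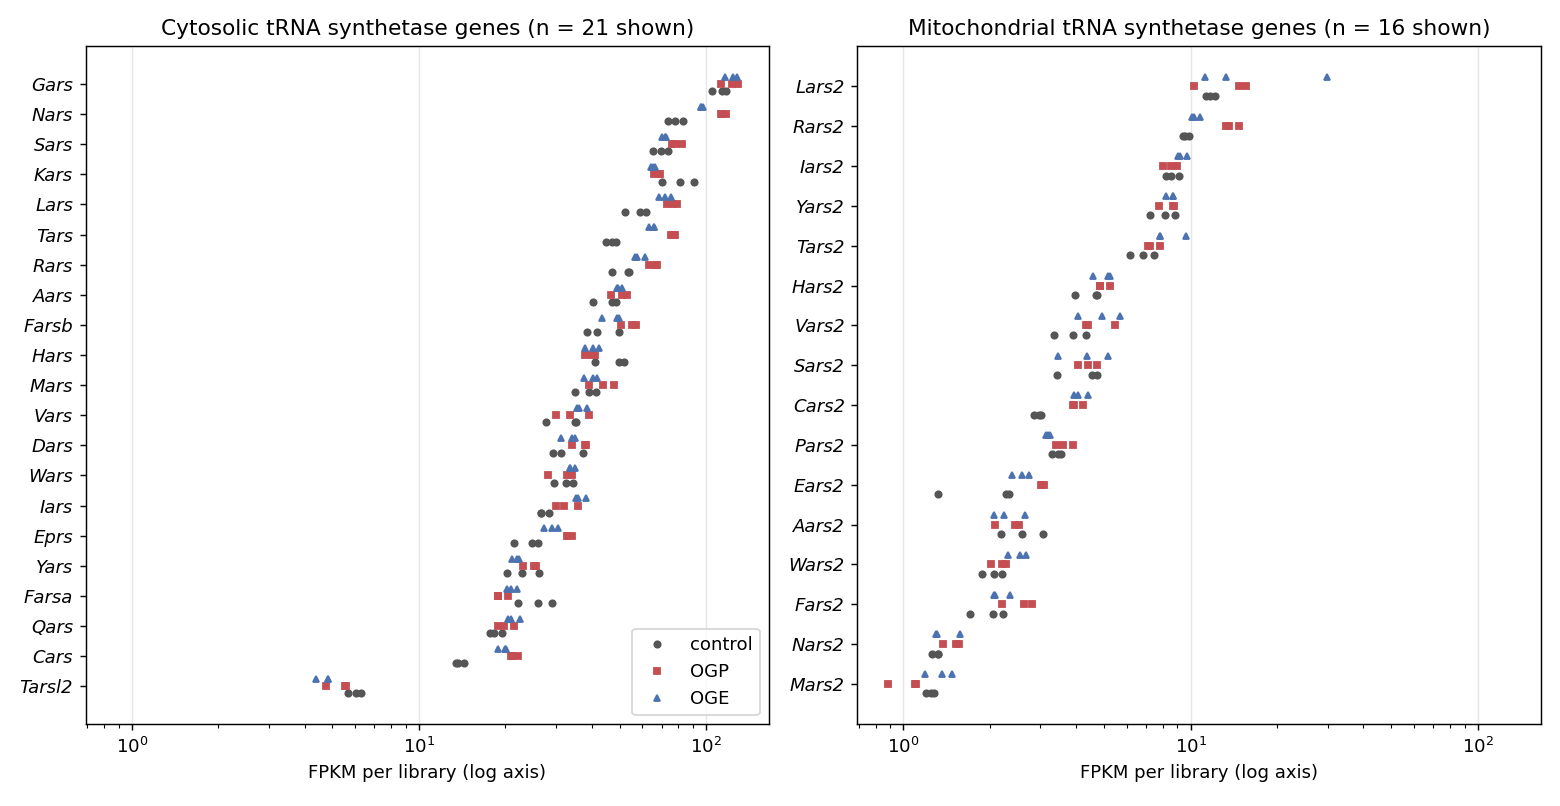
FPKM of each tRNA synthetase gene in each of the 9 libraries on a log axis, with the 21 cytosolic genes on the left and 16 of the mitochondrial genes on the right, ordered by mean level. Circles are control, squares OGP and triangles OGE libraries; the single triangle far to the right in the Lars2 row is OGE replicate 3, at 29.9 FPKM.

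The summed level of the 21 cytosolic genes was 881, 922 and 918 FPKM in control libraries, 1066, 1008 and 1071 in OGP and 983, 1004 and 974 in OGE. The sums of the 3 groups did not overlap, with OGP highest and control lowest. The 17 mitochondrial genes summed to 75.6, 81.3 and 83.0 FPKM in control, 94.7, 88.0 and 94.8 in OGP and 87.8, 87.9 and 109 in OGE. Every OGP and OGE library lay above the control libraries, and OGE lay across OGP. The highest OGE sum came from Lars2, since without it the sums were 64.3 to 71.3 in control, 77.7 to 79.9 in OGP and 74.6 to 79.5 in OGE. The cytosolic sum was 11.1 to 11.6 times the mitochondrial one in control and 11.3 to 11.4 times in OGP, and 8.91 to 11.4 times in OGE, where OGE replicate 3 gave the lowest value.

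Nars, Tars, Lars and Rars gave the largest parts of the cytosolic difference, and most other cytosolic genes added smaller ones. OGP exceeded control by 141 FPKM on average, of which Nars gave 36.4 FPKM (25.7%), Tars 29.7 (21.0%), Lars 18.6 (13.2%) and Rars 14.7 (10.4%). Kars, Hars and Farsa were lower by means of 13.0, 7.79 and 6.34 FPKM and so took away from the sum. Of the 12.5 FPKM in the mitochondrial class, Rars2 alone gave 4.26 FPKM (34.0%). These shares are a description of the net difference in group means, and they give most weight to genes of high FPKM.

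Because ATF4 binds the element known as CARE, the promoters were searched for its letters, TGATGNAA, on both strands, and matching stretches of 4 of the genes are shown before the values they stand beside. RefSeq promoters of GRCm38.p6 (250 bases before to 50 after the start) were given for 28 of the 38 members and not for 10, among them Cars, Hars, Hars2, Lars, Nars, Pars2, Rars, Vars and Wars. Of 14 cytosolic genes with a promoter, 5 held a match in at least 1 promoter (35.7%), and of 14 mitochondrial genes 0 did. Of 32851 promoters of all genes, 3.97% held a match. The members were counted by gene and all genes by promoter, so these shares are not in the same unit. Capitals mark the match, on the strand of the gene, and the number in brackets is the position of its first base from the start.
Gars (-30), chr6:55037961-55037988, plus strand: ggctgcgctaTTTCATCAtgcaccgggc
Iars (8), chr13:49682127-49682154, plus strand: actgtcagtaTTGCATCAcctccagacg
Tars (-15), chr15:11399656-11399683, minus strand: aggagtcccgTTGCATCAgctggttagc
Yars (4), chr4:129189896-129189923, plus strand: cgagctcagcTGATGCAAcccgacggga
Tars, Iars and Yars held the same letters, which in Yars run on the other strand. A match is a description, and whether it is bound or has a part in the values was not tested. Of the 5 genes with a match, Tars passed both thresholds in OGP against control below and Iars the adjusted p alone. The others passed neither, among them Gars and Yars, with log2 fold changes of 0.11 and 0.10. Cars, Nars, Lars and Rars, also higher there by the adjusted p, had no promoter given. Eprs and Farsb, higher there too, had a promoter without a match. The interferon-stimulated response element was searched on both strands as GAAANN directly followed by GAAA. It matched only Qars (1 of 14 cytosolic genes, at -199) and 0 of 14 mitochondrial genes, beside 3.44% of all promoters, again counted by promoter.

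For Tars, the member with the largest log2 fold change of OGP against control, the 250 bases upstream of the RefSeq start (chr15:11399659-11399908, minus strand, GRCm38.p6) place the match near the end of the stretch, in capitals.
Tars upstream: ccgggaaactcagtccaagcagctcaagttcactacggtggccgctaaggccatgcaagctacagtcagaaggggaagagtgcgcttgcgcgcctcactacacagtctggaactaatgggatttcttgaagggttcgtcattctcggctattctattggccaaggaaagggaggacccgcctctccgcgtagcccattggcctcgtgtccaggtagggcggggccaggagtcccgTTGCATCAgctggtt

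In OGP against control, 2 cytosolic genes rose, Tars and Cars, and no member fell. A differentially expressed gene (DEG) had a Benjamini-Hochberg adjusted p of at most 0.05 in limma and a fold of at least 1.5. By that rule 2 of 21 cytosolic and 0 of 17 mitochondrial genes were higher, where 6.38% of all tested genes were higher and 5.74% lower. With the adjusted p alone, 8 cytosolic genes were higher and 1 lower, and 4 mitochondrial genes were higher and 0 lower, against 13.8% higher and 16.0% lower of all tested genes. The share of cytosolic genes higher by the adjusted p was thus above that of all tested genes, and the share lower was under it, with no test of either. Of the 17 mitochondrial genes, 5 were higher at an unadjusted p under 0.05 and 0 lower (19.7% and 22.0% of all tested genes), and voom on the recovered reads made 1 of them, Ears2, a DEG. The groups did not overlap, with OGP higher, for 9 cytosolic and 6 mitochondrial genes (20.3% of all tested genes). They did not overlap with OGP lower for 3 cytosolic and 1 mitochondrial (22.6%). The median log2 fold change was 0.17 over the cytosolic and 0.14 over the mitochondrial genes, beside 0.01 over all tested genes, and 30 of the 38 members were above 0.

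Tars, the cytosolic threonyl-tRNA synthetase (chr15:11382301-11399665, minus strand, mm10), measured 47.1, 44.9 and 48.7 FPKM in control, 76.6, 75.4 and 77.9 in OGP and 66.0, 66.0 and 63.3 in OGE. The 3 groups were apart from each other, with OGE between the others. The mean rose from 46.9 ± 1.95 to 76.6 ± 1.25 FPKM (SD, n = 3), 1.63 times, or 0.70 on the log2 scale (SE 0.065, limma adjusted p = 0.000117). All log2 fold changes are of FPKM + 0.5. Its relative Tarsl2, whose product also charges tRNA with threonine, was at 6.03, 6.28 and 5.68 FPKM in control and 5.55, 5.56 and 4.76 in OGP, a log2 fold change of -0.17 (limma adjusted p = 0.176).

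Cars, the cytosolic cysteinyl-tRNA synthetase (chr7:143557230-143600090, minus strand, mm10), stood at 13.7, 14.3 and 13.5 FPKM in control, 22.1, 21.0 and 21.1 in OGP and 18.9, 20.0 and 20.1 in OGE. Every OGP library was above every OGE library, and both above control. The mean rose from 13.8 ± 0.416 to 21.4 ± 0.604 FPKM (SD, n = 3), 0.62 on the log2 scale (SE 0.064, limma adjusted p = 0.000229). Both Tars and Cars stayed DEGs without any 1 library.

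**Figure D2:**
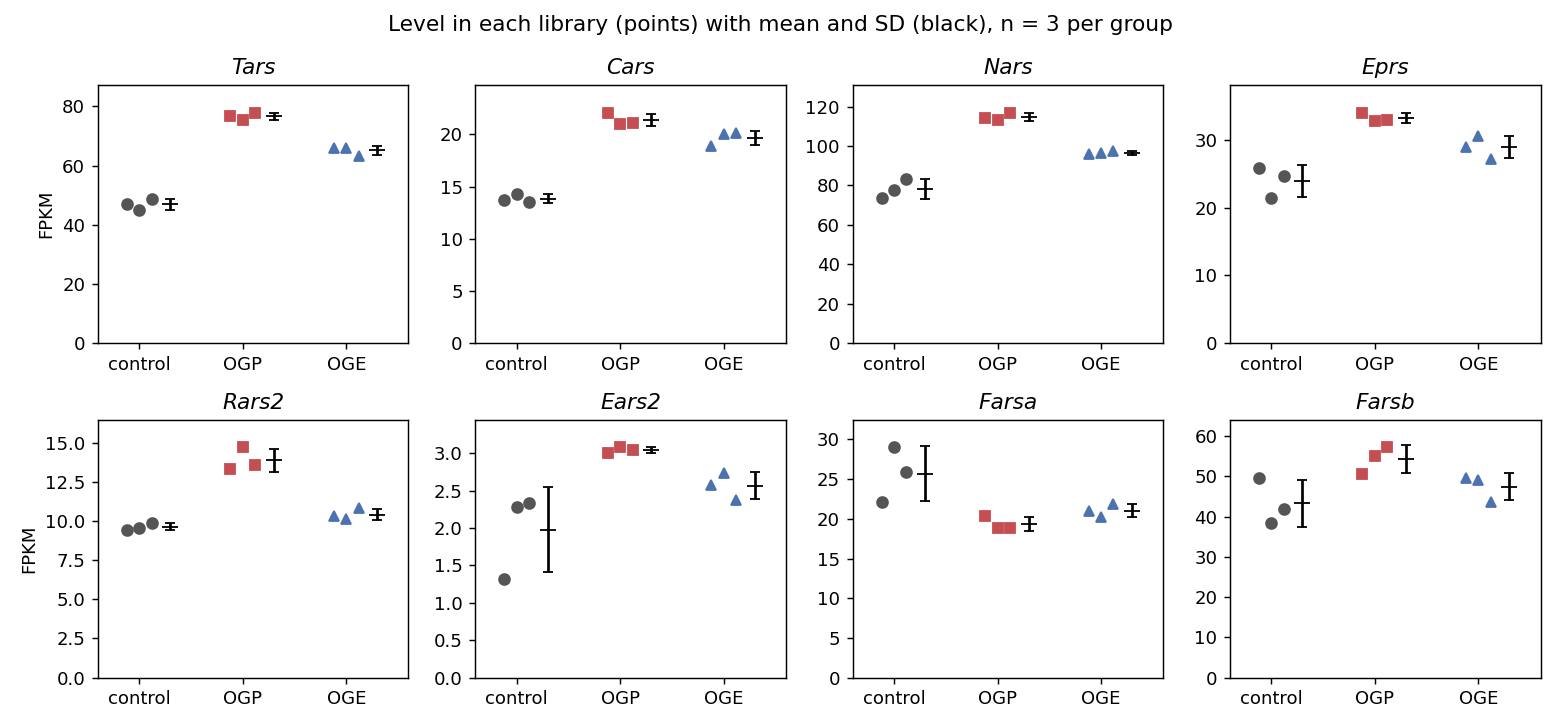
FPKM per library (points; y axes start at 0) for 8 members in control, OGP and OGE, with the group mean and SD (n = 3) in black. OGP lies above control without overlap in Tars, Cars, Nars, Eprs, Rars2, Ears2 and Farsb and below it in Farsa.

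A further 6 cytosolic genes were higher by the adjusted p but under the 1.5-fold threshold. Nars, the asparaginyl enzyme, measured 73.5, 77.9 and 83.2 FPKM in control, 114, 113 and 117 in OGP and 95.8, 96.3 and 97.6 in OGE, with a log2 fold change of 0.55 for OGP (SE 0.070, limma adjusted p = 0.00061). Without control replicate 3 it passed the fold threshold as well. Eprs makes 1 protein that charges tRNA with glutamate and with proline, and it was at 25.9, 21.4 and 24.7 FPKM in control and 34.1, 32.8 and 33.0 in OGP (0.47, adjusted p = 0.00383). The OGP values of both genes lay above all control values.

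Lars, the leucyl enzyme that also acts as a leucine sensor upstream of mTORC1, was at 58.7, 52.2 and 61.7 FPKM in control and 79.1, 72.9 and 76.5 in OGP (log2 fold change 0.40, limma adjusted p = 0.00672). Rars, the arginyl enzyme, was at 53.7, 46.9 and 53.3 FPKM in control and 63.4, 67.0 and 67.5 in OGP (0.36, adjusted p = 0.00804). Iars, the isoleucyl enzyme, was at 28.4, 26.7 and 26.6 FPKM in control and 35.7, 29.9 and 32.0 in OGP (0.25, adjusted p = 0.0438). None of these 3 overlapped between the groups. The call for Iars was lost in 10 of the 19 alternatives listed in the closing section, whereas those for Nars, Eprs, Lars and Rars were kept in all 19.

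The 2 subunits of cytosolic phenylalanyl-tRNA synthetase had log2 fold changes of opposite sign, both with calls that depended on the processing. Farsa, the α subunit, was at 22.1, 29.0 and 25.9 FPKM in control, 20.4, 18.8 and 18.8 in OGP and 21.0, 20.2 and 21.9 in OGE, and OGP against control came to -0.39 on the log2 scale (SE 0.099, limma adjusted p = 0.0165). Farsb, the β subunit, was at 49.6, 38.4 and 41.8 FPKM in control, 50.6, 55.1 and 57.2 in OGP and 49.6, 49.0 and 43.5 in OGE, which put OGP against control at 0.33 (SE 0.11, adjusted p = 0.0423). Both were under the 1.5-fold threshold. Control replicate 1 was the lowest control library for Farsa and the highest for Farsb, and without it the values were -0.49 and 0.43. The enzyme holds equal numbers of both subunits. The FPKM of Farsb exceeded that of Farsa in each of the 9 libraries, with deposited gene lengths of 2620 and 4538 bases. In recovered reads, not scaled by length, Farsa was higher in control replicate 2 (2234 against 1708) and control replicate 3 (2184 against 2034). In these control libraries the FPKM excess of Farsb thus depends on the lengths. In the other libraries Farsb had more recovered reads too, such as 2364 against 1401 (OGP replicate 2) and 1767 against 1545 (OGE replicate 3). The Farsa call was lost without control replicate 3, OGP replicate 2 or OGP replicate 3, at -0.38 to -0.37. The Farsb call was lost in 10 of the 19 alternatives, at 0.25 to 0.33, among them quantile normalization, the 6 libraries compared alone and the removal of any of 6 single libraries.

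Kars, the lysyl enzyme, and Hars, the histidyl enzyme, were lower on average in OGP without passing. Kars measured 70.2, 91.1 and 81.0 FPKM in control, 69.2, 65.7 and 68.4 in OGP and 64.2, 65.6 and 66.6 in OGE, with a log2 fold change of -0.24 (limma adjusted p = 0.081). Hars measured 41.1, 51.8 and 49.8 FPKM in control, 40.1, 38.0 and 41.2 in OGP and 40.3, 37.9 and 42.5 in OGE, with -0.25 (adjusted p = 0.0829). In both, control replicate 1 was nearest to OGP. Without that library Kars was at -0.34 (adjusted p = 0.00631) and Hars at -0.35 (adjusted p = 0.00636), so that 3 cytosolic genes were lower by the adjusted p in place of 1. Hars and Hars2 lie head to head and share 198 bases on opposite strands, and since the counting is not stated to use strand, reads there cannot be told apart.

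**Figure D3:**
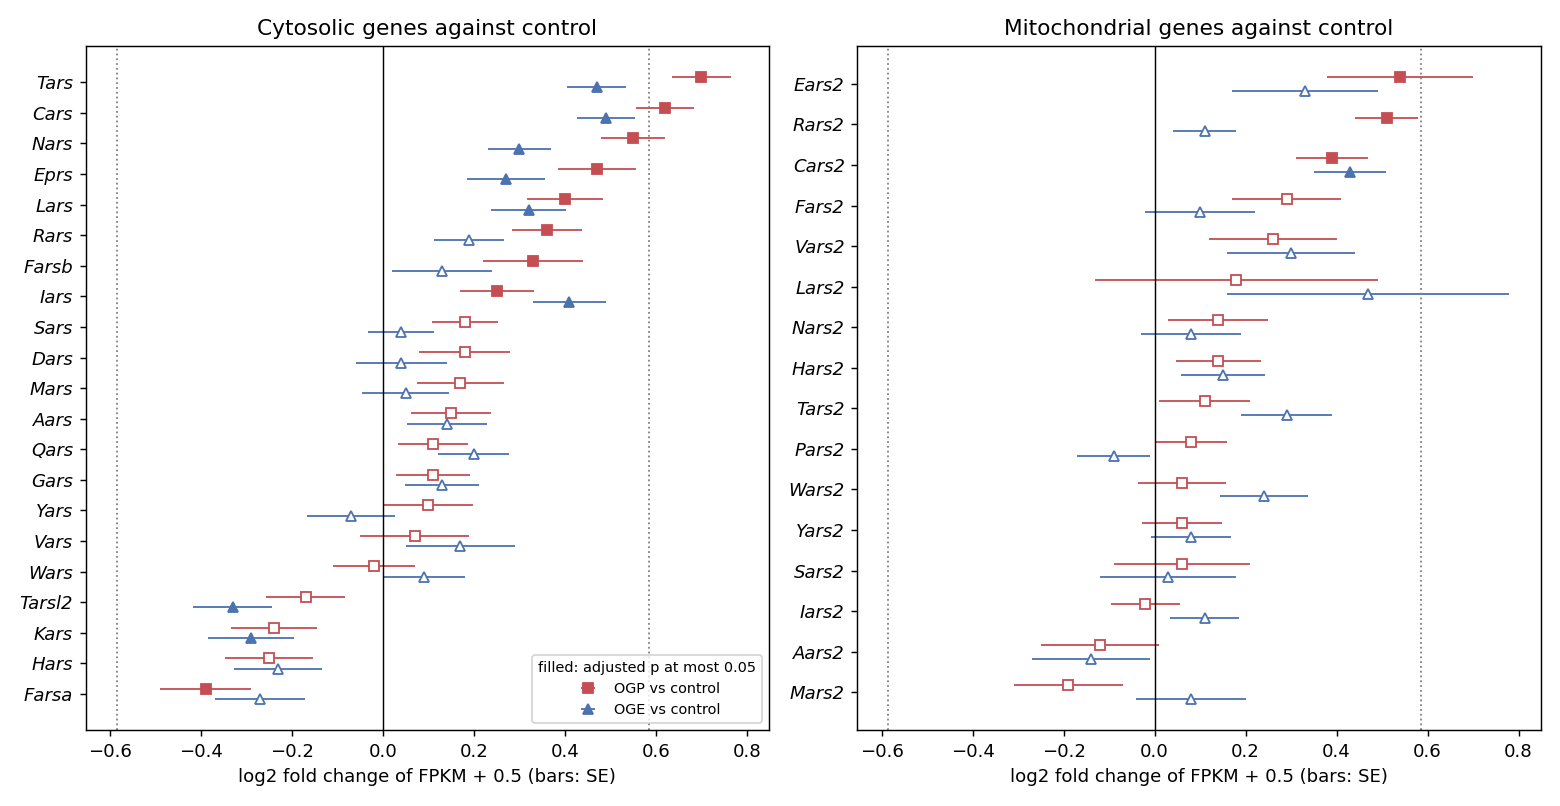
Log2 fold change of FPKM + 0.5 (x axis; bars, SE) in OGP (squares) and OGE (triangles) against the same control libraries, for the 21 cytosolic genes (left) and 16 mitochondrial genes (right). Filled symbols have an adjusted p of at most 0.05 and dotted lines mark the 1.5-fold threshold (0.585), which only the OGP values of Tars and Cars passed.

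By structural family, 5 of 10 class I cytosolic genes were higher by the adjusted p in OGP and 0 lower (median log2 fold change 0.21), and 4 of 12 class II genes were higher and 1 lower (0.16), with Eprs in both families, where 13.8% of all tested genes were higher and 16.0% lower. The 8 cytosolic enzymes that are built into the multi-tRNA synthetase complex (Dars, Eprs, Iars, Kars, Lars, Mars, Qars and Rars) had 4 members higher and 0 lower, with a median of 0.21. The 13 outside the complex had 4 higher and 1 lower, with a median of 0.11. Both DEGs were among these 13, and neither the difference between the families nor that between enzymes inside and outside the complex was tested. Of the 3 scaffold proteins of the complex, Aimp1 was higher, at 0.28 (limma adjusted p = 0.0379), and Aimp2 and Eef1e1 did not pass.

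Among the mitochondrial enzymes, Rars2, which charges the mitochondrial arginine tRNA (chr4:34614957-34660167, plus strand, mm10), was at 9.45, 9.55 and 9.90 FPKM in control, 13.3, 14.7 and 13.6 in OGP and 10.3, 10.1 and 10.8 in OGE. All OGP libraries lay above the other 6. The log2 fold change of OGP against control was 0.51 (SE 0.069, limma adjusted p = 0.000889), under the fold threshold, and it passed the adjusted p in all 19 alternatives. Cars2, the cysteinyl enzyme, was at 2.85, 3.02 and 2.97 FPKM in control, 3.93, 3.91 and 4.23 in OGP and 4.41, 3.93 and 4.07 in OGE (0.39, adjusted p = 0.00612). Both treated groups lay above control and overlapped each other. The gene shares 984 bases with Naxd on the other strand.

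Ears2, the mitochondrial glutamyl enzyme (chr7:122037213-122067263, minus strand, mm10), was at 1.32, 2.28 and 2.34 FPKM in control, 3.01, 3.08 and 3.04 in OGP and 2.58, 2.74 and 2.38 in OGE. Control replicate 1 was far under the other control libraries. The log2 fold change of OGP against control was 0.54 (SE 0.16, limma adjusted p = 0.0318) and 0.34 without control replicate 1. The call was lost in 6 of the 19 alternatives, among them the fit of only the 6 libraries compared. Ears2 shares 89 bases with Ubfd1 on the other strand. The other 13 mitochondrial genes did not pass.

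Within the pairs, the cytosolic gene had the larger log2 fold change in 11 of 18 and the mitochondrial one in 7, with no test of the difference. Eprs and Fars2 each stood in more than a single pair. The 0.5 added to FPKM shrinks fold changes more in low genes, which here were mostly mitochondrial. Farsb had 0.33 and Fars2 0.29, whereas their OGP to control ratios of mean FPKM were 1.25 and 1.28. Cars and Cars2, Eprs and Ears2, and Rars and Rars2 were higher by the adjusted p in both compartments. Tars rose while Tars2, at 6.15 to 7.43 FPKM in control and 7.09 to 7.80 in OGP, gave 0.11 (limma adjusted p = 0.45). The ratio of Tars to Tars2 was 6.04 to 7.66 in control, 9.82 to 11.0 in OGP and 6.58 to 8.43 in OGE, so OGP stood clear of both. The ratio of Nars to Nars2 was 55.9 to 66.1 in control and 73.1 to 82.6 in OGP, also without overlap. For Rars and Rars2 the ratio was 4.91 to 5.69 in control and 4.55 to 4.95 in OGP, which overlapped.

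**Figure D4:**
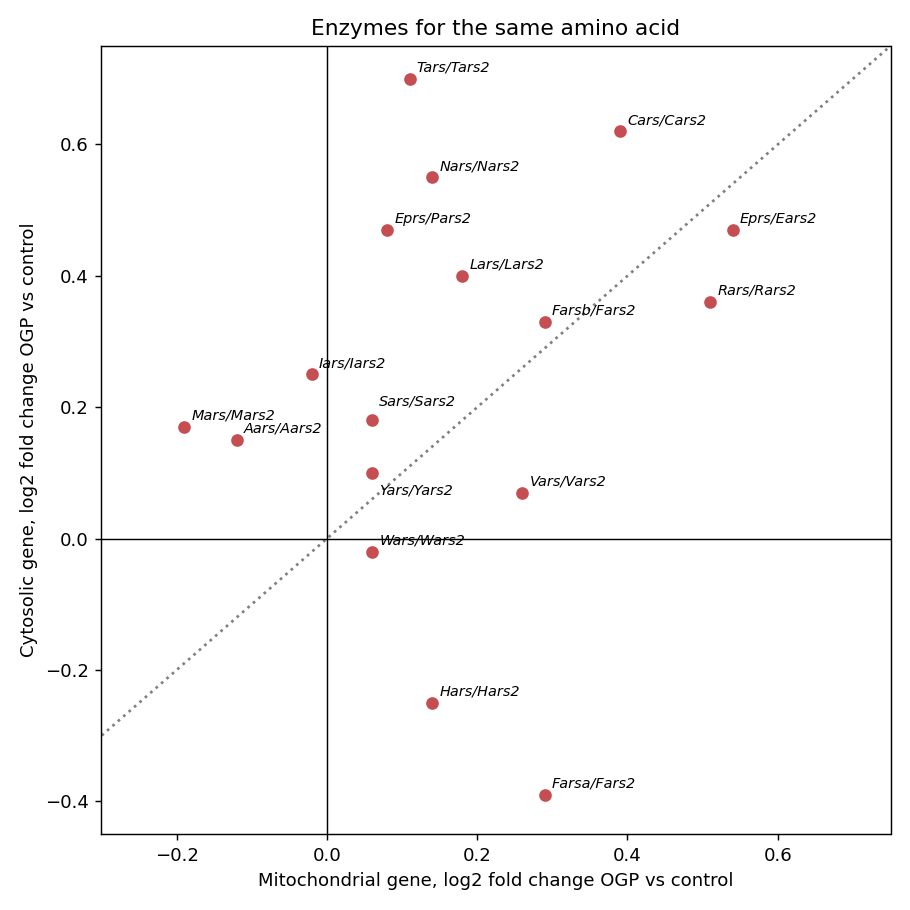
Log2 fold change of OGP against control for 17 of the 18 pairs of enzymes for the same amino acid, the mitochondrial gene on the x axis and the cytosolic gene on the y axis. The dotted line marks equal change; 11 pairs lie above it, with Tars and Tars2 farthest above and Farsa and Fars2 farthest below.

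In OGE against OGP, no member was a DEG in either direction, by limma or by voom on the recovered reads. Of all tested genes, 3.39% were DEGs higher in OGE and 4.73% lower. At an unadjusted p under 0.05, 0 members were higher and 4 lower, 3 of them cytosolic (17.9% and 16.8% of all tested genes). With the adjusted p alone 3 members were lower, Tars, Nars and Rars2, and 0 higher, against 10.2% lower and 10.6% higher of all tested genes, so members were not called more often than other genes. The groups did not overlap, with OGE lower, for 8 cytosolic and 3 mitochondrial genes (22.0% of all tested genes), and with OGE higher for 0 cytosolic and 4 mitochondrial genes (23.3%). The median log2 fold change was -0.12 over the cytosolic and 0.01 over the mitochondrial genes, beside 0.00 over all tested genes. The cytosolic median changed sign to 0.04 under quantile normalization, under which the median of all genes was 0.02.

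Rars2 was the member farthest from OGP, with a log2 fold change of -0.40 (SE 0.069, limma adjusted p = 0.00428) that passed in all 19 alternatives. Its OGE values of 10.1 to 10.8 FPKM lay just above the control values of 9.45 to 9.90. Nars gave -0.24 (SE 0.070, adjusted p = 0.0364) and Tars -0.23 (SE 0.065, adjusted p = 0.0331). In both, every OGE library lay between the control and the OGP libraries. These 2 calls were lost in 9 of 19 alternatives, among them quantile normalization, voom and the removal of any 1 OGP or OGE library, at -0.26 to -0.09 for Nars and -0.25 to -0.05 for Tars. Cars, with a log2 fold change of -0.12 (adjusted p = 0.218), did not pass.

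In OGE against control, which shares its control libraries with OGP against control, 0 members were DEGs by limma and 0 by voom, where 5.14% of tested genes were DEGs higher and 6.33% lower. At an unadjusted p under 0.05, 12 members were higher and 4 lower (18.0% and 19.0%). By the adjusted p alone 6 cytosolic and 2 mitochondrial genes were higher and 2 cytosolic and 0 mitochondrial genes lower, against 11.7% and 13.1% of all tested genes. The groups did not overlap for 10 cytosolic and 6 mitochondrial genes higher in OGE (18.6% of tested genes) and for 3 cytosolic and 1 mitochondrial gene lower (19.6%). The median was 0.13 over the cytosolic and 0.11 over the mitochondrial genes.

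Of the genes higher in OGE, Cars had a log2 fold change of 0.49 (SE 0.064, limma adjusted p = 0.000629) and Tars of 0.47 (SE 0.065, adjusted p = 0.000893). Iars was at 35.3, 38.1 and 35.8 FPKM in OGE, above all 3 control libraries, at 0.41 (SE 0.081, adjusted p = 0.00584), beside its 0.25 in OGP. Others were Cars2 (0.43), Lars (0.32), Nars (0.30) and Eprs (0.27). Cars, Tars, Iars, Nars and Cars2 kept the call in all 19 alternatives, while Eprs lost it in 11 and Lars in 4. Lower were Kars, at -0.29 (adjusted p = 0.0495), which lost the call in 15, and Tarsl2, at 4.37, 4.84 and 4.84 FPKM, all under control, at -0.33 (adjusted p = 0.0239), which lost it in 3. Without control replicate 1, Kars was at -0.39, and Hars and Farsa joined them at -0.33 and -0.37. Tarsl2 shares 923 bases with Tm2d3 on the same strand, so reads there cannot be told apart.

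Lars2, the mitochondrial leucyl enzyme, was at 11.3, 12.2 and 11.7 FPKM in control, 14.8, 10.3 and 15.6 in OGP and 11.2, 13.3 and 29.9 in OGE. One library, OGE replicate 3, was at more than any other. OGE against control gave 0.47 on the log2 scale (SE 0.31, limma adjusted p = 0.305) and 0.06 without that library, and that of OGE against OGP was 0.29 with it and -0.13 without it. In the same libraries, the non-coding gene Gm26917 was at 25.9 FPKM in OGE replicate 3 and at 5.18 to 17.7 in the other libraries, and the 57-base gene Gm23935 at 17879 FPKM against 1540.3 to 7145. Rn7sk, a small nuclear RNA, was at 7.59 FPKM against 0.488 to 4.27. The mitochondrial ribosomal RNA mt-Rnr2 was not raised there, at 177 FPKM beside 190.2 and 228 in the other OGE libraries. Their part in the Lars2 value was not tested.

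**Figure D5:**
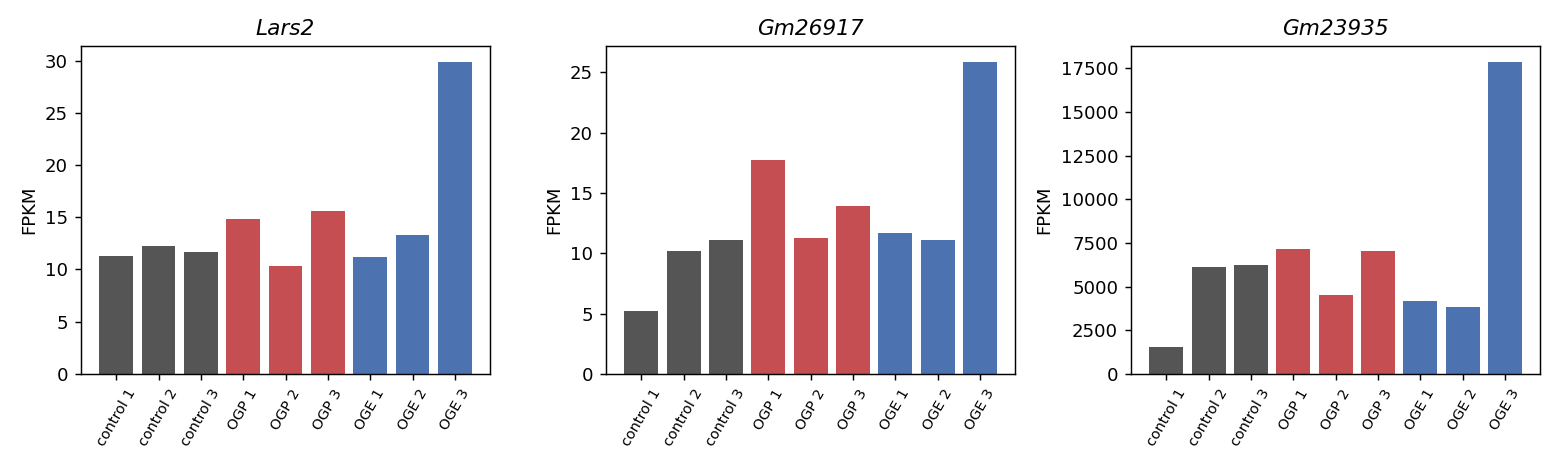
FPKM per library (bars from 0) of Lars2 and of the non-coding genes Gm26917 and Gm23935. In all 3, OGE replicate 3 has the tallest bar, at 29.9, 25.9 and 17879 FPKM.

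Wars, the tryptophanyl enzyme, is a known interferon-induced gene. It was at 29.6, 34.3 and 32.5 FPKM in control, 34.1, 28.2 and 32.8 in OGP and 34.9, 33.7 and 33.7 in OGE, and it passed in no comparison (log2 fold change of OGE against OGP 0.11, limma adjusted p = 0.425). In the same libraries all 9 tested genes of a list of 10 interferon-induced genes were lower in OGE than in OGP by the adjusted p. Of these, 8 were DEGs, and the median was -1.91. Of all tested genes, 10.2% were lower by the adjusted p and 4.73% were DEGs lower. Ifit3 fell from a mean of 440.1 to 51.6 FPKM and Irf7 from 86.6 to 25.4. Wars did not share that pattern.

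The ATF4 response was read from 24 other genes. In OGP against control 7 of the 24 rose and 1 fell, where 6.38% of all tested genes were DEGs higher and 5.74% lower. By the adjusted p alone 14 of the 24 were higher and 1 lower (13.8% and 16.0% of all tested genes). The median log2 fold change of the 24 was 0.43. Atf4 itself was at 154, 200.2 and 197 FPKM in control, 310.1, 312 and 325 in OGP and 243, 213 and 242 in OGE, and rose by 0.79 (limma adjusted p = 0.00106). The 3 groups did not overlap, in the order control, OGE, OGP. The part of ATF4 in the values of the synthetase genes was not tested. Tars, Cars, Nars, Eprs, Lars, Rars, Farsb, Rars2 and Ears2, all higher in OGP, had means in the order control, OGE, OGP. They were picked as higher in the same OGP libraries, which by itself favours an OGE mean under that of OGP. Of these genes, only Tars, Nars and Rars2 were lower in OGE than in OGP by the adjusted p. The means of Iars were 27.2, 32.6 and 36.4 FPKM in control, OGP and OGE and those of Cars2 were 2.95, 4.02 and 4.14. OGE had the highest mean in both, but its libraries overlapped those of OGP. Trib3, an inhibitor of ATF4, rose by 1.54, Cth, which makes cysteine, by 1.62 and Ddit3, the factor CHOP, by 0.60. Mars and Ddit3 share 68 bases on opposite strands, and Mars, the methionyl enzyme, gave 0.17 (adjusted p = 0.204). Asns, the asparagine synthetase, was higher at 0.49, under the fold threshold. In OGE against OGP 1 of the 24 rose and 3 fell, where 3.39% of all tested genes were DEGs higher and 4.73% lower. By the adjusted p 2 of the 24 were higher and 8 lower (10.6% and 10.2% of all tested genes). Their median was -0.21, and Atf4 was at -0.44 (limma adjusted p = 0.0228).

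Other genes of the path from tRNA to ribosome were set beside the synthetases. By the adjusted p in OGP against control, 13.8% of all tested genes were higher and 16.0% lower. Of 9 tested genes for tRNA maturation, export and editing, 3 were higher and 1 lower by the adjusted p in OGP, none by the DEG rule. Trnt1, which adds the CCA end, was at 0.46 (limma adjusted p = 0.00836) and Xpot, the tRNA exportin, at 0.43 (adjusted p = 0.00387), while Prorsd1 was at 0.47 and Xpo5 at -0.49. Xpot rose in OGE against control, from 31.7 ± 1.80 to 49.6 ± 2.64 FPKM (SD, n = 3), by 0.64 on the log2 scale. Dtd1, which removes D-amino acids from tRNA, fell in OGE against OGP, from 2.91 ± 0.222 to 1.76 ± 0.0647 FPKM (-0.59, adjusted p = 0.00767). In mitochondria, which lack a glutaminyl enzyme of their own and amidate tRNA charged with glutamate, 2 of 4 listed genes were lower by the adjusted p in OGP. They were Qrsl1 of the amidotransferase, at -0.39, and Mtfmt, which formylates methionyl-tRNA, at -0.47. Of 5 cytosolic elongation factors, Eef1a1 (0.42) and Eef1b2 (0.37) were higher, and of 4 mitochondrial ones 0 passed in any comparison, with 1 lower in OGP and 1 higher in OGE against OGP at an unadjusted p under 0.05.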

How the data were processed

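Per the labels, poly(A) RNA of HT22 cells was sequenced in 9 libraries, and the submitters' processing notes name HISAT2 2.0.5 and mm10. The authors counted reads per gene with featureCounts and deposited FPKM per gene and library, with gene coordinates, lengths and biotypes. Their strand setting and annotation release are not given. FPKM times gene length gave whole reads in every library, to within 2.15e-05 of a read.

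FPKM are not counts, so the values were tested as log2(FPKM + 0.5) with limma 3.58.1 in R 4.3.3 (a linear model of 3 groups over all 9 libraries, empirical Bayes with a trend), over 13245 genes averaging 0.5 FPKM or more, with Benjamini-Hochberg adjustment over all of them and two-sided p-values. The thresholds (adjusted p of at most 0.05, fold of at least 1.5) follow the study. The code was tested on simulated data. Alternatives were other pseudocounts, filters, scalings and sets of libraries, voom on the recovered reads, and the replicate number as a block.

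The members and the gene lists were chosen with earlier results of these data known. Every member may be named, with values in every library for those called in at least 1 comparison, and called genes of the other lists. Lars2, Hars, Wars, Tars2, Mars and the 4 non-coding genes set with Lars2 were given values after these had been seen. Some genes and 1 sequence are counted but not reported here.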

Additional observations from a re-analysis of the deposited data

How the results depend on the processing

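Each of the 28 results for single genes was recomputed under 19 alternatives, 532 values in all, of which 434 kept their direction and side of the adjusted p threshold and 96 lost the call. The other 2 changed sign: Lars2 in OGE against OGP was -0.13 without OGE replicate 3 and -0.13 without both that library and control replicate 1, in a range of -0.13 to 0.56 when 1 library was left out. Of 606 values of counts and medians, 542 stayed close to those given. A count was close if equal, or if both counts were above 0 and within a factor of 1.5, such as 6 against 8. Counts of 0 that stayed at 0 are included, so this tally is a loose one.

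With no fold threshold, the counts in OGP against control became 8 cytosolic genes higher and 1 lower and 4 mitochondrial higher. In OGE against OGP they became 2 cytosolic and 1 mitochondrial lower, and in OGE against control 6 cytosolic higher, 2 lower and 2 mitochondrial higher. With both thresholds, 1 mitochondrial gene (Ears2) was called in OGP against control with a pseudocount of 0.1 and 1 with voom, and 1 cytosolic gene (Tars) in OGE against control under quantile normalization. By the adjusted p alone in OGP against control, 3 cytosolic genes were lower under quantile normalization and 3 without control replicate 1 and OGE replicate 3, and 2 mitochondrial genes were higher with no filter on low values and 2 with only the 6 libraries compared. In OGE against OGP, 0 cytosolic genes were lower under quantile normalization and with voom, and the cytosolic median was 0.04 under quantile normalization. In OGE against control, 1 cytosolic gene was lower with a pseudocount of 0.1, no filter, quantile normalization, median-ratio scaling, only the 6 libraries, voom, or Tarsl2 counted as mitochondrial (which gave 1 mitochondrial gene lower), and 4 without control replicate 1 and OGE replicate 3. There the cytosolic median was 0.23 under quantile normalization, and 1 mitochondrial gene was higher with no filter and 1 with only the 6 libraries. Apart from the choice of samples, genes or threshold itself, the cause was not tested.

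Leaving out 1 library at a time gave these ranges. In OGP against control, 2 to 3 cytosolic and 0 to 1 mitochondrial genes were DEGs higher. By the adjusted p, 6 to 9 cytosolic genes were higher, 0 to 3 lower and 2 to 4 mitochondrial higher. In OGE against OGP, 0 to 2 cytosolic genes were lower, with a median of -0.13 to -0.05. In OGE against control, 4 to 7 cytosolic genes were higher, 0 to 4 lower and 1 to 2 mitochondrial higher. The lowest counts of cytosolic genes lower came without control replicate 3 or OGP replicate 2 or 3 in the first comparison and without control replicate 2 or OGE replicate 1 or 2 in the last, and the highest without control replicate 1.

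The groups share replicate numbers, but deviations of libraries with the same number correlated at -0.177 to 0.319 and do not pair the samples. With the replicate number as a block, 0 cytosolic genes were lower in OGE against OGP and 1 in OGE against control, where 1 mitochondrial gene was higher, and by both thresholds 2 cytosolic genes were higher in OGP against control.

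With 3 libraries a group, precision is limited to the SEs given beside the values. A fold change on the scale of log2(FPKM + 0.5) understates that of low genes such as Mars2 or Nars2.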
